A study of Fragaria vesca with 24 samples.

Results

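The 5 transporter genes described here belong to *Fragaria vesca* and were measured across crowns and leaves of the genotypes ‘Alta’ and ‘NCGR1363’, before and after cold treatment. They are the SWEET1-like sugar transporter gene FvH4_2g14860, the major facilitator gene FvH4_2g15730, the vacuolar iron transporter gene FvH4_2g13960, the ABC transporter G family member 22-like gene FvH4_2g14330 and the lysine histidine transporter-like 7 gene FvH4_2g16052. These are 5 of the 34006 genes in the table, all lying in the interval on chromosome Fvb2 in which the study located a freezing tolerance locus. The 5 genes were chosen by their cold responses and genotype differences in these same libraries, so those values are given as a description without a test. Differences between crown and leaf, and the shares of a gene's isoforms, were not themselves used in the choice and were tested. They use the same libraries as the values that chose the genes, so these tests are not fully independent of the choice.

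The study compared woodland strawberry ‘Alta’, which survives freezing better, with the more sensitive ‘NCGR1363’, using plants of both genotypes raised from rooted runners. Crown and leaf were taken from untreated plants (0 h) and from plants kept at 2 °C for 42 d, the acclimation given before the freezing tests of the study. The 8 groups are therefore ‘Alta’ crown, ‘Alta’ leaf, ‘NCGR1363’ crown and ‘NCGR1363’ leaf, each at 0 h and at 42 d, with 3 biological replicates and 24 strand-specific RNASeq libraries in all. The untreated plants were those at 0 h, and by the methods of the study the day was also shorter during acclimation than while plants were raised, so cold, day length and age cannot be told apart. In addition, each genotype is a single accession.

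Total counts per library ran from 12818719 to 18487934. The library labelled ‘Alta’ crown, replicate 3 at 42 d, stood apart. Over 17931 genes its log2 expression correlated with the ‘Alta’ leaf libraries at 0 h at r between 0.975 and 0.988, and with the other ‘Alta’ crown libraries at 42 d at r between 0.601 and 0.622. A list of 4 chloroplast genes summed to between 26.7 and 39.3 CPM (counts scaled to a common library total) in the 11 other crown libraries, to between 786 and 2230 CPM in the 12 leaf libraries, and to 1920 CPM in that library. Of 3 crown marker genes only the casparian strip membrane protein gene FvH4_2g15060 separated the tissues, with 0.503 to 4.99 CPM in crowns, at most 0.233 CPM in leaves and 0.0941 CPM in that library. The library is therefore left out of the group values, which have n = 2 for ‘Alta’ crown at 42 d, and its values are given apart.

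Membrane transporters set which solutes cross the plasma membrane and the membranes of organelles. SWEET proteins let sugars pass down their gradient in either direction, and the major facilitators are a large family of carriers that move sugars, nitrate, peptides and other small solutes. Vacuolar iron transporters load iron into the vacuole in *Arabidopsis* and other plants, ABCG proteins use ATP to export lipids, hormones and other compounds, and lysine histidine transporters take amino acids into the cell. Overwintering strawberries keep living meristems in the crown, the short stem from which leaves and flowers emerge, while soluble sugars are known to build up in cold-acclimating plants.

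**Figure D1:**
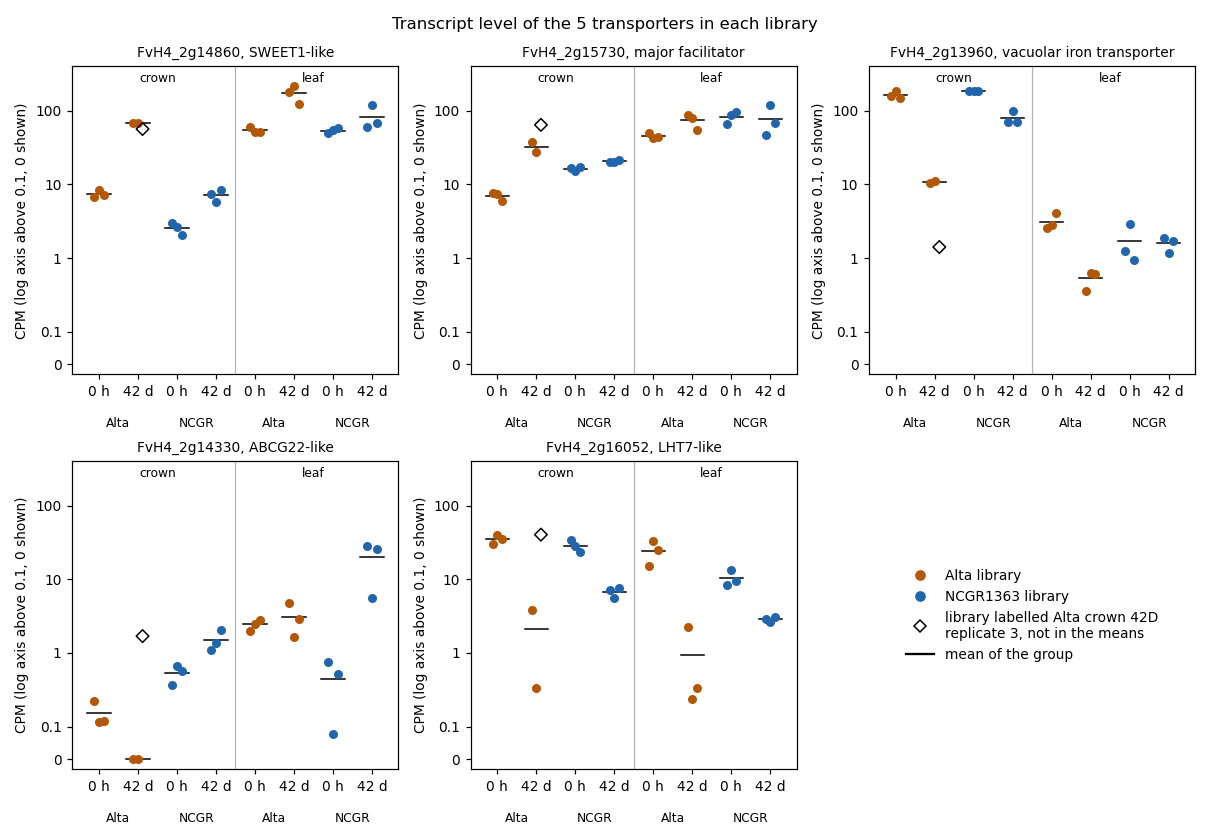
Transcript level of the 5 transporter genes in each library, in CPM on an axis that is logarithmic above 0.1 and shows 0. Points are libraries, lines are means of the group, and the open diamond is the third library labelled ‘Alta’ crown at 42 d, which is not in the means. The SWEET1-like gene was highest in ‘Alta’ leaves at 42 d, and the vacuolar iron transporter gene was higher in crowns than in leaves. The ABCG22-like gene was at 0 in both ‘Alta’ crown libraries at 42 d.

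The SWEET1-like gene FvH4_2g14860 was a leaf-high gene whose level in crowns separated the genotypes at both times, and more widely after cold treatment. In ‘Alta’ crowns it had 6.77, 8.45 and 7.29 CPM at 0 h, and 68.5 and 67.8 CPM at 42 d. In ‘NCGR1363’ crowns it had 3.01, 2.66 and 2.05 CPM at 0 h, and 7.45, 5.78 and 8.31 CPM at 42 d. All libraries at 42 d were above those at 0 h of the same genotype, and the ‘NCGR1363’ crown libraries at 42 d overlapped the ‘Alta’ crown libraries at 0 h. The mean at 42 d was 9.08-fold that at 0 h in ‘Alta’ crowns, a log2 difference of 3.19 (SE 0.12), against 2.79-fold and 1.48 (SE 0.20) in ‘NCGR1363’ crowns. Between genotypes the ‘Alta’ crown mean was 2.91-fold the ‘NCGR1363’ mean at 0 h and 9.49-fold at 42 d, and the ‘NCGR1363’ cold response less the ‘Alta’ one was -1.70 (SE 0.23). In the third library labelled ‘Alta’ crown at 42 d the level was 56.5 CPM, and with it the ‘Alta’ crown response was 3.11 (SE 0.19).

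In leaves the SWEET1-like gene had 59.8, 52 and 51.3 CPM in ‘Alta’ at 0 h, and 180, 218 and 124 CPM at 42 d. ‘NCGR1363’ leaves had 49.2, 54.3 and 57.4 CPM at 0 h, and 60.2, 119 and 68.4 CPM at 42 d. The genotypes overlapped at 0 h, whereas at 42 d all ‘Alta’ leaf libraries were above all ‘NCGR1363’ leaf libraries. The log2 cold response was 1.68 (SE 0.21) in ‘Alta’ leaves and 0.63 (SE 0.24) in ‘NCGR1363’ leaves, and the difference of the responses was -1.03 (SE 0.34). The library at 119 CPM was ‘NCGR1363’ leaf 42 d replicate 2, without which the latter response was 0.32 and the difference -1.38. Over the 8 groups the mean ran from 2.57 CPM in ‘NCGR1363’ crowns at 0 h to 174 CPM in ‘Alta’ leaves at 42 d, a 67.6-fold range. From the top, the neighbours in that order that overlapped were ‘NCGR1363’ leaf and ‘Alta’ crown at 42 d, the leaves of both genotypes at 0 h, and ‘Alta’ crown at 0 h with ‘NCGR1363’ crown at 42 d. Its near copy FvH4_2g14850, annotated with the same name, had 1 count in 1 library and 0 in the others, so few reads of the pair were placed on the copy.

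The major facilitator gene FvH4_2g15730, whose substrate is not annotated, had a mean 4.62-fold higher at 42 d than at 0 h in ‘Alta’ crowns and 1.26-fold higher in ‘NCGR1363’ crowns. ‘Alta’ crowns had 7.65, 7.39 and 5.90 CPM at 0 h, and 37 and 27.4 CPM at 42 d. ‘NCGR1363’ crowns had 16.8, 15 and 17.2 CPM at 0 h, and 20.1, 20.2 and 21.7 CPM at 42 d. ‘Alta’ crowns were thus the lowest of all groups at 0 h and above ‘NCGR1363’ crowns at 42 d, with no overlap at either time. The cold response was 2.21 (SE 0.19) in ‘Alta’ crowns and 0.34 (SE 0.09) in ‘NCGR1363’ crowns on the log2 scale. The genotype difference, ‘NCGR1363’ against ‘Alta’, was 1.21 (SE 0.12) at 0 h and -0.65 (SE 0.16) at 42 d, the latter between -0.42 and -0.87 when ‘Alta’ crown 42 d replicate 1 or replicate 2 was left out. The third library labelled ‘Alta’ crown at 42 d had 64.3 CPM, and with it the ‘Alta’ crown response was 2.63 (SE 0.38) and the genotype difference at 42 d was -1.08 (SE 0.35).

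In leaves FvH4_2g15730 had 49.2, 43.3 and 44.6 CPM in ‘Alta’ at 0 h, and 88.2, 79 and 55.4 CPM at 42 d. ‘NCGR1363’ leaves had 66, 87 and 96.9 CPM at 0 h, and 47, 119 and 68.5 CPM at 42 d. At 42 d the ‘NCGR1363’ libraries spanned the whole ‘Alta’ range. The log2 cold response was 0.70 (SE 0.18) in ‘Alta’ leaves and -0.09 (SE 0.32) in ‘NCGR1363’ leaves, where the libraries at the 2 times overlapped. Here too the 119 CPM were those of ‘NCGR1363’ leaf 42 d replicate 2. The 3 highest groups, ‘NCGR1363’ leaf at 0 h and 42 d and ‘Alta’ leaf at 42 d, overlapped one another. ‘NCGR1363’ leaf at 42 d, with a library at 47 CPM, also overlapped ‘Alta’ leaf at 0 h, which reached 49.2 CPM. From ‘Alta’ leaf at 0 h downward, each group in the order was separate from the next. The range of the group means was 11.9-fold, the narrowest of the 4 genes for which a range could be given.

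The vacuolar iron transporter gene FvH4_2g13960 was a crown gene. ‘Alta’ crowns had 157, 187 and 148 CPM at 0 h, and 10.3 and 11.2 CPM at 42 d. ‘NCGR1363’ crowns had 186, 187 and 184 CPM at 0 h, and 69.9, 99.6 and 70.8 CPM at 42 d. The genotypes overlapped at 0 h and were far apart at 42 d, when the ‘NCGR1363’ mean was 7.46-fold the ‘Alta’ mean. The mean at 42 d was 15.3-fold below that at 0 h in ‘Alta’ crowns, a log2 difference of -3.92 (SE 0.16), and 2.32-fold below it in ‘NCGR1363’ crowns, a log2 difference of -1.22 (SE 0.12). The difference of the responses was 2.72 (SE 0.22). In the third library labelled ‘Alta’ crown at 42 d the level was 1.41 CPM, and with it the ‘Alta’ crown response was -4.41 (SE 0.79).

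Leaves held little of the FvH4_2g13960 transcript, with 2.54, 2.80 and 4.06 CPM in ‘Alta’ at 0 h and 0.353, 0.637 and 0.611 CPM at 42 d, the latter from 5, 8 and 9 counts. ‘NCGR1363’ leaves had 1.24, 2.87 and 0.946 CPM at 0 h, and 1.89, 1.17 and 1.72 CPM at 42 d. The ‘Alta’ leaves at 42 d were below every other leaf library. The log2 cold response was -2.54 (SE 0.40) in ‘Alta’ leaves and -0.05 (SE 0.51) in ‘NCGR1363’ leaves, and the latter was 0.54 without ‘NCGR1363’ leaf 0 h replicate 2. From the highest group mean to the lowest the range was 348-fold. In the order of the groups every crown group was above every leaf group, the neighbours that overlapped being the crowns of both genotypes at 0 h, and ‘Alta’ leaf at 0 h, ‘NCGR1363’ leaf at 0 h and ‘NCGR1363’ leaf at 42 d in turn.

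The ABCG22-like gene FvH4_2g14330, related to ABC transporters of the plasma membrane, had its highest levels in leaves of cold-treated ‘NCGR1363’ and was low in counts elsewhere. ‘Alta’ leaves had 2.00, 2.5 and 2.82 CPM at 0 h, and 4.73, 1.67 and 2.92 CPM at 42 d. ‘NCGR1363’ leaves had 0.745, 0.0776 and 0.516 CPM at 0 h, and 28.3, 5.5 and 26 CPM at 42 d. The ‘Alta’ leaves overlapped between the times, whereas all ‘NCGR1363’ leaf libraries at 42 d were above every other library, and those at 0 h rested on 12, 1 and 6 counts. Replicate 2 was the lowest of the ‘NCGR1363’ leaf libraries at both times, with 66 counts at 42 d against 419 and 469. At 42 d that library also had the highest level of all 4 chloroplast genes, such as 1083 CPM of FvH4_2g14900 against 528.9 and 654.3 CPM. It had the lowest level of FvH4_2g16940, at 13.66 CPM against 107 and 67.65 CPM, and of FvH4_2g13380. Neither of these genes of the crown list separated the tissues. FvH4_2g15060, which did, had 0 counts against 1 and 2, too few to order. The part of these levels in the result was not tested. The log2 cold response was 5.45 (SE 0.92) in ‘NCGR1363’ leaves and 0.35 (SE 0.41) in ‘Alta’ leaves, and the genotype difference in leaves was -2.38 (SE 0.60) at 0 h and 2.65 (SE 0.70) at 42 d.

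In crowns FvH4_2g14330 had 0.220, 0.117 and 0.12 CPM in ‘Alta’ at 0 h, from 4, 2 and 2 counts, and 0 counts in both ‘Alta’ libraries at 42 d. ‘NCGR1363’ crowns had 0.370, 0.664 and 0.571 CPM at 0 h, from 7, 12 and 10 counts, and 1.09, 1.35 and 2.05 CPM at 42 d. The ‘NCGR1363’ libraries were above the ‘Alta’ libraries at both times. Taking 3 counts per library as the level that a count of 0 allows, the ‘NCGR1363’ crown mean at 42 d was at least 8.07-fold higher than that of ‘Alta’. No fold is given for the cold response of ‘Alta’ crowns, since both times were at or near that floor, and the gene did not pass the filter there. The third library labelled ‘Alta’ crown at 42 d had 18 counts, or 1.69 CPM, within the range of the crowns of ‘NCGR1363’ at 42 d, and with it the crown difference between genotypes at 42 d came to 1.48 (SE 1.55). In the order of the groups, ‘Alta’ leaf at 42 d, ‘Alta’ leaf at 0 h and ‘NCGR1363’ crown at 42 d followed the ‘NCGR1363’ leaves at 42 d and overlapped in turn, as did ‘NCGR1363’ crown, ‘NCGR1363’ leaf and ‘Alta’ crown at 0 h below them.

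The lysine histidine transporter-like 7 gene FvH4_2g16052 was lower at 42 d than at 0 h in both tissues of both genotypes. ‘Alta’ crowns had 30.2, 39.4 and 34.9 CPM at 0 h, and 3.87 and 0.335 CPM at 42 d, from 57 and 6 counts. ‘NCGR1363’ crowns had 34.1, 28.2 and 23.8 CPM at 0 h, and 7.08, 5.59 and 7.74 CPM at 42 d. The genotypes overlapped in crowns at 0 h, and at 42 d both ‘Alta’ libraries were below the ‘NCGR1363’ libraries. The log2 cold response was -4.10 (SE 0.69) in ‘Alta’ crowns and -2.07 (SE 0.15) in ‘NCGR1363’ crowns. The former was -6.66 without ‘Alta’ crown 42 d replicate 1 and -3.14 without replicate 2. The third library labelled ‘Alta’ crown at 42 d had 40.4 CPM, above every other library, and with it the ‘Alta’ crown response was -1.21 (SE 1.42) and the genotype difference at 42 d changed from 1.73 (SE 0.74) to -1.15 (SE 1.42). The same difference was 4.30 without ‘Alta’ crown 42 d replicate 1 and 0.80 without replicate 2.

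In leaves FvH4_2g16052 had 15.4, 33.1 and 25 CPM in ‘Alta’ at 0 h, and 2.26, 0.239 and 0.340 CPM at 42 d, from 32, 3 and 5 counts. ‘NCGR1363’ leaves had 8.38, 13.3 and 9.37 CPM at 0 h, and 2.90, 2.67 and 3.10 CPM at 42 d. ‘Alta’ leaves were above ‘NCGR1363’ leaves at 0 h and below them at 42 d, with no overlap at either time. The log2 cold response was -4.66 (SE 0.65) in ‘Alta’ leaves and -1.81 (SE 0.25) in ‘NCGR1363’ leaves, the former -6.31 without ‘Alta’ leaf 42 d replicate 1. The 3 groups at the top, ‘Alta’ crown, ‘NCGR1363’ crown and ‘Alta’ leaf at 0 h, overlapped in that order, as did the 3 at the bottom, ‘NCGR1363’ leaf, ‘Alta’ crown and ‘Alta’ leaf at 42 d. Group means ran over a 36.8-fold range.

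Lysine histidine transporter-like 8 genes, 4 in number, lie beside FvH4_2g16052 by their locus numbers, and how reads were divided among such relatives cannot be seen in the counts. FvH4_2g16040 had at most 2 counts and FvH4_2g16053 at most 4 counts in any library. FvH4_2g16050 was low, with group means between 0.489 and 3.67 CPM. FvH4_2g16054 had 34.1, 37.8 and 42.4 CPM in ‘Alta’ crowns at 0 h and 40.2 and 76.6 CPM at 42 d, so that the times overlapped there, which they did not for FvH4_2g16052. In ‘NCGR1363’ crowns FvH4_2g16054 had 9.99 to 12.1 CPM at 0 h and 10.7 to 18.2 CPM at 42 d, below these ‘Alta’ crown libraries.

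**Figure D2:**
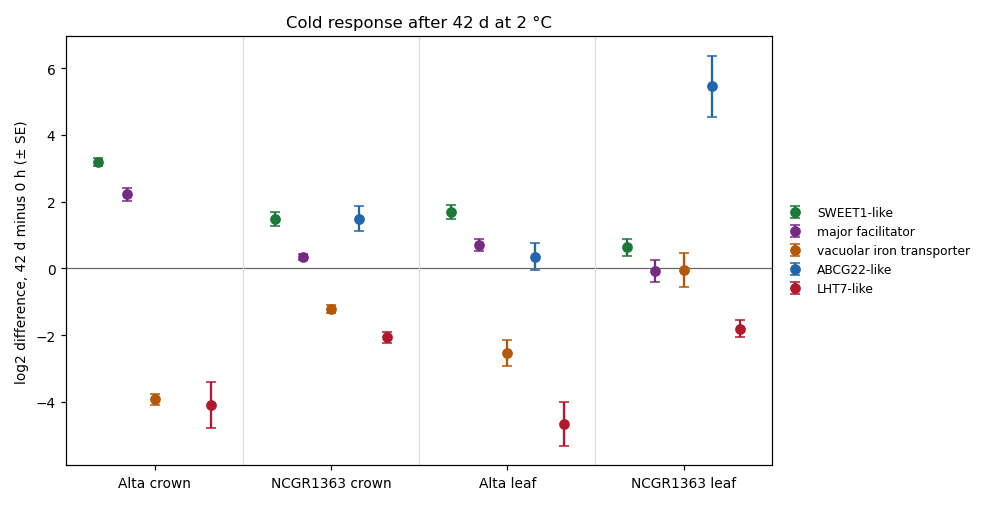
Cold response of the 5 transporter genes as the log2 difference between 42 d and 0 h, with bars of 1 standard error, in the 4 combinations of genotype and tissue. Values above 0 are higher at 42 d. The SWEET1-like gene was above 0 throughout, from 0.63 to 3.19, and the lysine histidine transporter-like 7 gene was below 0 throughout, from -1.81 to -4.66. The ABCG22-like gene has no point for ‘Alta’ crown, where it did not pass the filter.

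Across members, the SWEET1-like, major facilitator, vacuolar iron transporter and lysine histidine transporter-like 7 genes had cold responses of larger size in ‘Alta’ than in ‘NCGR1363’ in both tissues, while the ABCG22-like gene had its larger response in ‘NCGR1363’ leaves. This is a description of values that chose the genes, and the comparisons of a tissue share libraries. Subtracting the ‘Alta’ cold response from the ‘NCGR1363’ one gave 2.06 (SE 0.62) in crowns and 2.88 (SE 0.82) in leaves for the lysine histidine transporter-like 7 gene, 2.51 (SE 0.65) in leaves for the iron transporter gene and -0.76 (SE 0.39) in leaves for the major facilitator gene. The second of these was 4.56 without ‘Alta’ leaf 42 d replicate 1, and the last was -1.18 without ‘NCGR1363’ leaf 42 d replicate 2. Without ‘Alta’ crown 42 d replicate 1 or replicate 2 the first of these was 4.61 or 1.10, and it was -0.88 (SE 1.49) with the third library labelled ‘Alta’ crown at 42 d. The response in crowns minus that in leaves was 1.51 (SE 0.27) for the SWEET1-like gene and 1.51 (SE 0.27) for the major facilitator gene in ‘Alta’, and 0.87 (SE 0.33) and 0.45 (SE 0.36) in ‘NCGR1363’, the latter 0.84 without ‘NCGR1363’ leaf 42 d replicate 2. For the vacuolar iron transporter gene it was -1.39 (SE 0.37) in ‘Alta’ and -1.15 (SE 0.45) in ‘NCGR1363’, and for the lysine histidine transporter-like 7 gene 0.56 (SE 1.07) and -0.24 (SE 0.30). Both of the last values were within 1 standard error of 0, and the one in ‘Alta’ was -2.0 without ‘Alta’ crown 42 d replicate 1, 1.52 without replicate 2 and 2.26 without ‘Alta’ leaf 42 d replicate 1.

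Crown and leaf were then compared for each genotype at each time with the quasi-likelihood F-test of edgeR over all genes, with calls at a false discovery rate (FDR) of at most 0.05. The vacuolar iron transporter gene was higher in crown, and the SWEET1-like and major facilitator genes were higher in leaf, in all 4 comparisons. The iron transporter gene differed by 5.63 (SE 0.18, edgeR FDR 7.3e-09) in ‘Alta’ and 6.71 (SE 0.30, edgeR FDR 1.5e-06) in ‘NCGR1363’ at 0 h on the log2 scale, and by 4.32 (SE 0.34, edgeR FDR 0.00014) and 5.60 (SE 0.27, edgeR FDR 1.8e-05) at 42 d. The crown mean was between 20.1-fold and 110-fold the leaf mean. In all 4 comparisons every crown library was above every leaf library.

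The SWEET1-like gene was lower in crown by a log2 difference of -2.94 (SE 0.11, edgeR FDR 2.6e-08) in ‘Alta’ and -4.45 (SE 0.15, edgeR FDR 3.5e-07) in ‘NCGR1363’ at 0 h. At 42 d it was -1.36 (SE 0.26, edgeR FDR 0.0061) in ‘Alta’ and -3.53 (SE 0.29, edgeR FDR 0.00015) in ‘NCGR1363’. The leaf mean was thus 2.56-fold the crown mean in cold-treated ‘Alta’ and 11.5-fold in cold-treated ‘NCGR1363’. For the major facilitator gene the difference was -2.79 (SE 0.12, edgeR FDR 5e-08) in ‘Alta’ and -2.42 (SE 0.15, edgeR FDR 6.5e-06) in ‘NCGR1363’ at 0 h. At 42 d it was -1.21 (SE 0.25, edgeR FDR 0.0084) in ‘Alta’, which became -0.99 (SE 0.32, edgeR FDR 0.063) without ‘Alta’ crown 42 d replicate 2, and -1.93 (SE 0.31, edgeR FDR 0.0026) in ‘NCGR1363’.

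The ABCG22-like gene was lower in crown in ‘NCGR1363’ at 42 d, by a log2 difference of -3.77 (SE 0.69, edgeR FDR 0.0043). At 0 h, where the tissues overlapped, it had a difference of 0.14 (SE 0.65, edgeR FDR 0.86). The leaf libraries at 42 d also gave the cold response by which the gene was chosen, so its value at 42 d is not independent of the choice. In ‘Alta’ the gene passed the filter at both times through its leaf libraries alone, which fixed the direction, so no test is given there. Every ‘Alta’ crown library used was below every ‘Alta’ leaf library of the same time, and at 42 d, with both crown libraries at 0, the crown was at least 16.7-fold lower than the leaf. The lysine histidine transporter-like 7 gene was higher in crown in ‘NCGR1363’, by 1.41 (SE 0.20, edgeR FDR 0.00069) at 0 h and 1.20 (SE 0.22, edgeR FDR 0.0042) at 42 d. In ‘Alta’ its difference was 0.44 (SE 0.24, edgeR FDR 0.13) at 0 h, which became 0.71 (SE 0.22, edgeR FDR 0.021) without ‘Alta’ leaf 0 h replicate 2, and 1.11 (SE 1.16, edgeR FDR 0.47) at 42 d.

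In ‘Alta’ at 0 h the test called 1 member higher and 3 lower in crown, against 37.1% of 19310 genes higher and 36.0% lower. At 42 d it called 1 higher and 3 lower in ‘Alta’, against 21.0% and 23.8% of 18564 genes. The lower members in ‘Alta’ include the ABCG22-like gene, which entered through leaves alone, so nothing is read from these counts. In ‘NCGR1363’ 2 members were higher and 2 lower at 0 h, against 32.6% and 33.1% of 19309 genes, and 2 were higher and 3 lower at 42 d, against 27.1% and 28.4% of 19241 genes. Calls were therefore common among all genes, and the size of the members' differences stood beside a median absolute log2 difference over all genes tested of between 0.698 and 0.879. In bulk tissue, fewer cells of a type and less RNA per cell cannot be told apart. With the third library labelled ‘Alta’ crown at 42 d the members' differences in ‘Alta’ at 42 d were -1.43 (edgeR FDR 0.12) for SWEET1-like, -0.78 (edgeR FDR 0.35) for the major facilitator, 3.83 (edgeR FDR 0.14) for the iron transporter and -2.52 (edgeR FDR 0.48) for the ABCG22-like gene, and none was called. Calls over all genes then numbered 1 of 18756, in place of 8324 of 18564.

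**Figure D3:**
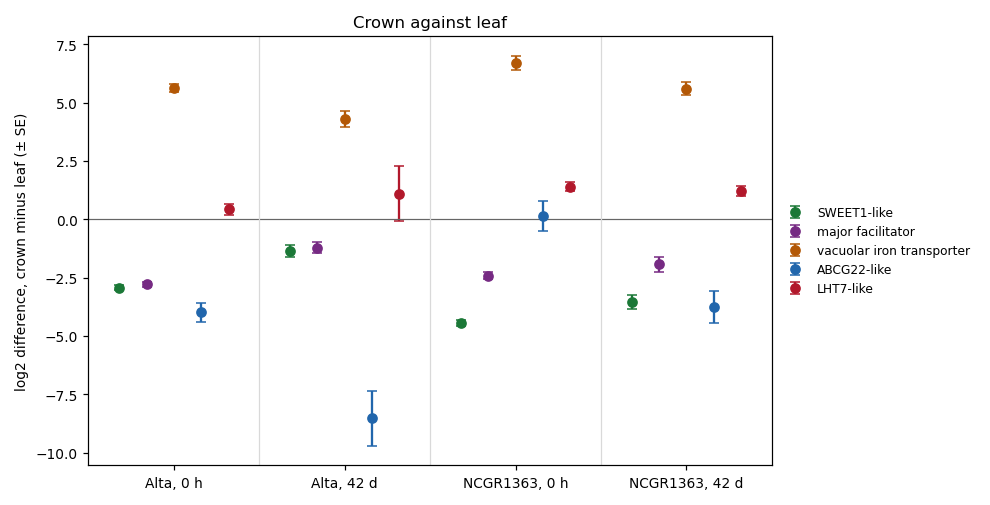
Difference between crown and leaf of the 5 transporter genes, as the log2 difference with bars of 1 standard error, for each genotype at each time. Values above 0 are higher in crown. The vacuolar iron transporter gene lay between 4.32 and 6.71, and the SWEET1-like and major facilitator genes were below 0 in all 4 comparisons. The points of the ABCG22-like gene in ‘Alta’ rest on leaf libraries alone to pass the filter, and the one at 42 d is a fitted value against libraries at 0 and sets no size.

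Isoform usage between the genotypes was tested over 33154 isoforms in the 23 libraries, of which 2.53% were called. The 10 isoforms tested belonged to 3 members, and 0 were called by edgeR, with 0 at an unadjusted p under 0.05 as well. In the major facilitator gene isoform t3 held 88.1% of the gene's counts and between 77.8% and 98.3% in single libraries, and t4 held 8.44%. The share of t4, pooled over libraries, was 8.54% at 0 h and 15.9% at 42 d in ‘Alta’ crowns, 3.04% and 12.9% in ‘Alta’ leaves, 4.72% and 13.8% in ‘NCGR1363’ crowns and 2.33% and 9.79% in ‘NCGR1363’ leaves, and the difference between times was not tested. Isoform t2 of the vacuolar iron transporter gene held 99.8% and t1 of the lysine histidine transporter-like 7 gene held 86.3%, beside 5.86% for t2 and 7.83% for t3. The SWEET1-like gene has 1 isoform in the table, and isoform t1 of the ABCG22-like gene had at most 4 counts in a library, so these were not tested. In ‘Alta’ leaves at 42 d, where the iron transporter gene was near 0, t1 held all 5 and all 9 counts of replicates 1 and 3, and t2 all 8 counts of replicate 2.

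A list of 37 other genes of the interval annotated as transporters, channels or carriers was used as a comparison. Of these, 32 passed the filter in at least 1 comparison of groups, and 4 had at most 3 counts in every library. Some of these genes passed the filter through 1 tissue alone, which fixed their direction. Nothing is therefore read from the counts of calls and the medians that follow. In ‘Alta’ at 0 h, 7 of 31 tested were higher and 19 lower in crown, against 37.1% and 36.0% of 19310 genes. The median log2 difference was -0.59 beside 0.02 over all genes. At 42 d 3 of 29 were higher and 12 lower, against 21.0% and 23.8% of 18564 genes, with a median of -0.35 beside 0.02. In ‘NCGR1363’ 7 of 31 were higher and 20 lower at 0 h, against 32.6% and 33.1% of 19309 genes, with a median of -1.12 beside 0.04. At 42 d 7 of 29 were higher and 16 lower, against 27.1% and 28.4% of 19241 genes, with a median of -0.70 beside 0.00324. Without ‘NCGR1363’ crown 42 d replicate 3 the latter calls numbered 14 in place of 23.

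Genes lower in crown included FvH4_2g14370, annotated TRANSPARENT TESTA 12-like after a vacuolar flavonoid carrier of *Arabidopsis*. This gene was at least 188-fold higher in leaf in ‘Alta’ at 0 h, with 0 counts in crowns. In ‘NCGR1363’ it had at most 1 count in a crown library at 0 h and at most 3 at 42 d, against 231 to 591 and 19 to 140 counts in leaves, and passed the filter through leaves alone in all 3 comparisons. The sucrose transporter gene SUC2-like FvH4_2g12320, of a family that loads sucrose into the phloem, had 15 to 51 counts in ‘Alta’ leaves at 42 d and at most 1 count in the crowns. Higher in crown were the MATE efflux gene FvH4_2g12380, by 2.23 (SE 0.27, edgeR FDR 7.6e-05) in ‘Alta’ at 0 h and 2.73 (SE 0.37, edgeR FDR 0.0012) in ‘NCGR1363’ at 42 d, and the glutamate receptor-like channel gene FvH4_2g16810, by 1.64 (SE 0.16, edgeR FDR 8.6e-05) in ‘NCGR1363’ at 0 h. The tonoplast sugar carrier gene FvH4_2g16850, monosaccharide-sensing protein 2, was higher in crown in ‘Alta’ at 42 d by 1.59 (SE 0.21, edgeR FDR 0.0013), which was 1.11 and not called with the third library labelled ‘Alta’ crown at 42 d.

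In crowns of both genotypes more of these genes were called higher than lower at 42 d against 0 h. The difference between these counts and the shares over all genes was not tested. In ‘Alta’ crowns 12 of 28 rose and 4 fell, against 27.7% and 30.0% of 18967 genes, with a median log2 response of 0.20 beside -0.00178 over all genes. In ‘NCGR1363’ crowns 11 of 28 rose and 5 fell, against 29.1% and 29.8%, with a median of 0.20 beside -0.00432. In leaves 9 of 31 rose and 11 fell in ‘Alta’, against 27.4% and 28.4%, and 3 of 30 rose and 6 fell in ‘NCGR1363’, against 17.0% and 14.3%. The calls in ‘Alta’ crowns numbered 10 in place of 16 without ‘Alta’ crown 0 h replicate 3 and 1 with the third library labelled ‘Alta’ crown at 42 d, where calls over all genes went from 10942 to 1465 as well. Those in ‘NCGR1363’ leaves numbered 5 in place of 9 without ‘NCGR1363’ leaf 42 d replicate 3.

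Among them FvH4_2g16850 rose most in ‘Alta’ crowns, by 1.84 (SE 0.20, edgeR FDR 0.00059), from 81.5 to 87 CPM at 0 h to 230 and 362 CPM at 42 d. The WAT1-related gene FvH4_2g13810 fell there by a log2 difference of -2.42 (SE 0.65, edgeR FDR 0.02), a call lost without ‘Alta’ crown 0 h replicate 1, at -2.30, or replicate 3, at -2.34. The value was -4.34 without ‘Alta’ crown 42 d replicate 1 and -1.53 without replicate 2, both called. With the third library labelled ‘Alta’ crown at 42 d, FvH4_2g16850 was at 1.34 and FvH4_2g13810 at 1.76, neither called. In ‘NCGR1363’ crowns the chloride channel gene CLC-e FvH4_2g17250 rose by 1.65 (SE 0.11, edgeR FDR 8.2e-07), and the nitrate and peptide transporter family gene FvH4_2g18020 fell, with a log2 difference of -1.49 (SE 0.36, edgeR FDR 0.0047) on at most 40 counts. In ‘Alta’ leaves the mitochondrial phosphate carrier gene FvH4_2g16870 rose by 2.93 (SE 0.40, edgeR FDR 0.00053), and the anion transporter gene FvH4_2g16800 had 20 to 45 counts at 0 h and at most 1 count at 42 d. In ‘NCGR1363’ leaves the chloroplast MATE gene FvH4_2g16390 rose by 2.00 (SE 0.28, edgeR FDR 0.0044), and FvH4_2g18580, annotated as a membrane protein of the ER body, was at least 27.7-fold lower at 42 d, with 0 counts in every library there.

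**Figure D4:**
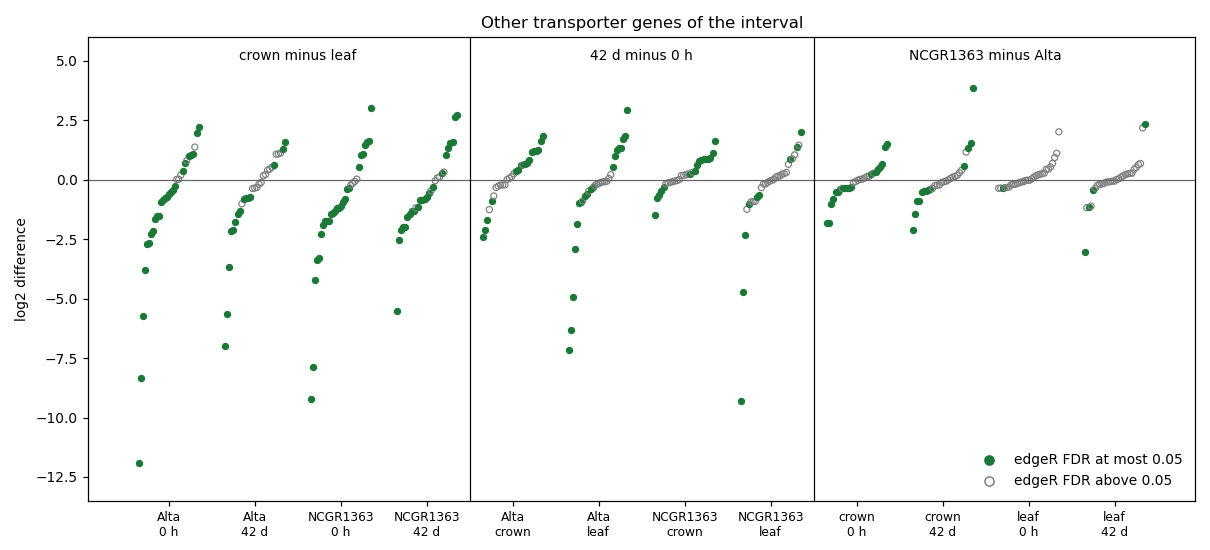
Log2 differences of the 37 other transporter genes of the interval that passed the filter in each of 12 comparisons, sorted within a comparison. Filled points have an edgeR FDR of at most 0.05 and open points a higher one. Crown against leaf had 26, 15, 27 and 23 calls, and ‘NCGR1363’ against ‘Alta’ in leaves had 1 at 0 h and 4 at 42 d. Points far below 0 belong to genes at or near 0 counts in the lower group and set no size.

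The 37 genes were also compared between genotypes. In crowns 7 of 28 were higher and 11 lower in ‘NCGR1363’ at 0 h, against 31.1% and 32.2% of 19392 genes, and 4 were higher and 9 lower at 42 d, against 25.9% and 23.9% of 18959 genes. In leaves 0 of 30 were higher and 1 lower at 0 h, against 9.40% and 9.31% of 18314 genes, and 1 of 29 was higher and 3 lower at 42 d, against 7.38% and 7.85% of 18562 genes. The 42 d crown calls numbered 5 in place of 13 without ‘NCGR1363’ crown 42 d replicate 1 or replicate 3, and 0 with the third library labelled ‘Alta’ crown at 42 d, where calls over all genes went from 9452 to 957. The leaf calls at 0 h ranged from 0 to 10 when one library was left out, with 0 without ‘Alta’ leaf replicate 2 or 3 or ‘NCGR1363’ leaf replicate 2, 2 without ‘Alta’ leaf replicate 1 and 10 without ‘NCGR1363’ leaf replicate 1. Those at 42 d were 9 without ‘NCGR1363’ leaf replicate 2, 2 without ‘Alta’ leaf replicate 2 and 1 without any of the other 4 libraries.

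For the 5 members chosen from these contrasts, the values stand above and nothing is read from a count. Of the other genes, FvH4_2g13810, of a family named after a vacuolar auxin carrier of *Arabidopsis*, was higher in ‘NCGR1363’ in crowns at 0 h by 1.49 (SE 0.18, edgeR FDR 5.5e-05), in crowns at 42 d by 3.88 (SE 0.60, edgeR FDR 0.0026) and in leaves at 42 d by 2.34 (SE 0.28, edgeR FDR 0.0057). Its 2 ‘Alta’ crown libraries at 42 d had 0.279 and 1.97 CPM, and those of ‘NCGR1363’ 12.2 to 19.4 CPM, but with the third library labelled ‘Alta’ crown at 42 d the difference in crowns at 42 d was -0.32. The aquaporin gene PIP2-7 FvH4_2g15440, a water channel of the plasma membrane, had a log2 difference of -1.83 in crowns at 0 h (SE 0.07, edgeR FDR 1.8e-08), with 121 to 138 CPM in ‘NCGR1363’ against 437 to 494 CPM in ‘Alta’. FvH4_2g16054 was lower in ‘NCGR1363’ crowns at 42 d, with a log2 difference of -2.10 (SE 0.32, edgeR FDR 0.0024), and with -1.56 and no call once the third library labelled ‘Alta’ crown at 42 d, at 3.58 CPM, was included. In leaves the copper ATPase gene PAA1 FvH4_2g11930 differed by -0.33 (SE 0.09, edgeR FDR 0.049) at 0 h, with no call in 4 of the 6 fits without a library, at -0.27 to -0.35, namely those without ‘Alta’ leaf 0 h replicates 1, 2 or 3 or ‘NCGR1363’ leaf 0 h replicate 2. FvH4_2g12320 differed by -3.05 (SE 0.78, edgeR FDR 0.047) at 42 d, with no call in 5 of 6 such fits, at -2.33 to -4.02, the call staying only without ‘NCGR1363’ leaf 42 d replicate 2. Its ‘Alta’ leaf libraries at 42 d were enough on their own for it to pass the filter, so nothing is read from its direction.

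The difference of the cold responses between genotypes was then compared for the 37 genes. In crowns 5 of 28 were higher and 2 lower in ‘NCGR1363’ than in ‘Alta’, against 21.0% and 14.9% of 19888 genes, and in leaves 2 of 31 were higher and 1 lower, against 10.6% and 7.07% of 19215 genes. The difference between crown and leaf in the cold response was called higher for 8 of 32 and lower for 4 in ‘Alta’, against 13.4% and 15.5% of 19863 genes, and higher for 5 of 31 and lower for 2 in ‘NCGR1363’, against 10.5% and 10.3% of 19910 genes. The leaf calls between genotypes numbered 9 in place of 3 without ‘NCGR1363’ leaf 42 d replicate 2 and 5 without ‘NCGR1363’ leaf 0 h replicate 1, and the crown calls 0 in place of 7 with the third library labelled ‘Alta’ crown at 42 d, where calls over all genes went from 7148 to 1281.

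Over the 23 libraries, the 3 genes whose log2(CPM + 0.5) was most like that of each member were taken, by Pearson r, from 17931 genes with a mean of at least 1 CPM. For the SWEET1-like gene these were FvH4_6g04140 (r = 0.99), FvH4_6g03401 (r = 0.984) and FvH4_7g25610 (r = 0.983). For the major facilitator gene they were FvH4_3g01040 (r = 0.962), FvH4_6g10700 (r = 0.956) and FvH4_4g12420 (r = 0.955). The vacuolar iron transporter gene was most like FvH4_2g31680 (r = 0.983), FvH4_6g13290 (r = 0.981) and FvH4_7g01040 (r = 0.98). The ABCG22-like gene was most like FvH4_3g18660 (r = 0.961), FvH4_1g23870 (r = 0.926) and FvH4_3g43030 (r = 0.921), and the lysine histidine transporter-like 7 gene most like FvH4_6g07810 (r = 0.945), FvH4_2g23100 (r = 0.943) and FvH4_2g40810 (r = 0.941). The libraries share groups and depths, so these values describe likeness of level only, and 0 of the 15 genes were in the list of interval transporters.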

How the data were processed

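The authors trimmed the reads, placed them on predicted transcripts of the *F. vesca* v4.a2 annotation using Bowtie2 within RSEM, and deposited expected counts per gene and per isoform. These expected counts were rounded to whole numbers before use. Libraries were assigned by titles and column names. The 5 members, the 37 other transporters and the marker lists were chosen with earlier results of these data known.

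Comparisons used edgeR 4.0.16 in R 4.3.3, on TMM-scaled libraries and with the legacy form of the quasi-likelihood F-test. Genes entered a comparison when 2 or more of its libraries reached 0.5 CPM, and p-values were adjusted by Benjamini-Hochberg across every gene entered. A gene was called at an FDR of at most 0.05. Standard errors are approximate, taken as the absolute log2 difference divided by the square root of its F statistic. Isoform usage was tested with diffSpliceDGE of edgeR, with the combinations of tissue and time as a single factor beside genotype. The scripts were tested on simulated data with known changes. A floor of 3 counts per library was used for groups at or near 0, which covers counting error only. Named other transporters are, per comparison, the called gene of largest log2 difference in each direction with a mean of at least 1 CPM, and the relatives beside members. No sequences were used here.

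The labels do not state what links replicates of the same number. Deviations of same-numbered libraries were correlated. Among comparisons with 3 pairs, every pair was over 0.1 only for crown against leaf in ‘NCGR1363’ at 42 d (r from 0.12 to 0.39). There the replicate block gave 21 calls among the other transporters in place of 23, and all 5 members were called in both fits. Comparisons with ‘Alta’ crown at 42 d have 2 pairs, and both were over 0.1 in each (r from 0.15 to 0.28). The block moved calls over all genes there from 8324 to 9225 for crown against leaf in ‘Alta’. For cold in ‘Alta’ crowns it moved them from 10942 to 8932, and for genotype in crowns from 9452 to 7341. Alternatives were DESeq2 1.42.0, other size factors, no filter, a fit of all groups, the default quasi-likelihood form, a replicate block, each library left out, and the third library labelled ‘Alta’ crown at 42 d kept.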

Additional observations from a re-analysis of the deposited data

Results flagged for a closer look

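Genotype by cold differences, as the log2 response of ‘NCGR1363’ minus that of ‘Alta’, were called for the WAT1-related gene FvH4_2g13810 at 2.402 in crowns (edgeR FDR 0.008) and 1.895 in leaves (edgeR FDR 0.0068). For the mechanosensitive ion channel gene FvH4_2g15780 they were -1.906 in crowns (edgeR FDR 0.00093) and -1.506 in leaves (edgeR FDR 0.0044). With the third library labelled ‘Alta’ crown at 42 d the crown values were -1.83 for FvH4_2g13810 and -1.52 for FvH4_2g15780, and neither was called. The crown value of FvH4_2g13810 was 4.31 without ‘Alta’ crown 42 d replicate 1 and 1.52 without replicate 2. Crown by leaf differences in the cold response were called for FvH4_2g18570, annotated as an ER body membrane protein, at 2.544 in ‘Alta’ (edgeR FDR 0.0017) and 1.787 in ‘NCGR1363’ (edgeR FDR 0.008), the former 1.69 without ‘Alta’ crown 42 d replicate 1. They were also called for the mitochondrial phosphate carrier gene FvH4_2g16870 at -2.21 in ‘Alta’ (edgeR FDR 0.0083) and for the chloroplast MATE gene FvH4_2g16390 at -1.112 in ‘NCGR1363’ (edgeR FDR 0.019). The last call was lost without ‘NCGR1363’ crown 42 d replicate 2, at -1.03, and without ‘NCGR1363’ leaf 42 d replicate 3, at -1.03.

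Some members moved in opposite directions with no overlap, and these differences were not tested because the members were chosen from these contrasts. The genotype difference of the major facilitator gene FvH4_2g15730 in crowns went from higher to lower in ‘NCGR1363’, an interaction of -1.859. The leaf genotype difference of the lysine histidine transporter-like 7 gene FvH4_2g16052 went from lower to higher, an interaction of 2.881 (4.56 without ‘Alta’ leaf 42 d replicate 1), and so did that of the ABCG22-like gene FvH4_2g14330, at 5.117. In crowns FvH4_2g14330 was higher at 42 d in ‘NCGR1363’, whereas ‘Alta’ had 2 to 4 counts at 0 h and 0 at 42 d, at or near the floor, so no direction is given there and the fitted interaction of 6.016 sets neither a size nor a direction.

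The third library labelled ‘Alta’ crown at 42 d, kept out of the comparisons, held 56.48 CPM of FvH4_2g14860, 64.29 CPM of FvH4_2g15730, 1.694 CPM of FvH4_2g14330 and 40.38 CPM of FvH4_2g16052, all above the untreated ‘Alta’ crowns.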

How the results depend on the processing

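The members had 20 differences between crown and leaf, 2 of them of FvH4_2g14330 in ‘Alta’ with a direction that the filter fixed. Each kept its side of the threshold under DESeq2, other size factors, no filter and the default quasi-likelihood form. Those called also kept their direction, which was not compared for those not called. FvH4_2g16052 gained a call in ‘Alta’ at 0 h with a replicate block (0.48, edgeR FDR 0.025) and lost that in ‘NCGR1363’ at 42 d with all groups in one fit (1.20, edgeR FDR 0.059). With the third library labelled ‘Alta’ crown at 42 d, calls in ‘Alta’ at 42 d were 0 among members and 0 among the other transporters, and calls among the latter were 1 for cold in ‘Alta’ crowns, 0 for genotype in crowns at 42 d and 0 for genotype by cold in crowns. Calls over all genes also fell with it, to 1 in place of 8324, 1465 in place of 10942, 957 in place of 9452 and 1281 in place of 7148. FvH4_2g13810 then reversed to 1.762 for cold in ‘Alta’ crowns, -0.3201 for genotype in crowns at 42 d and -1.832 for genotype by cold in crowns.

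Among the other transporters, all groups in one fit gave 18 calls for cold in ‘NCGR1363’ leaves, 9 for genotype in crowns at 0 h, 5 and 11 for genotype in leaves at 0 h and 42 d, and 4 and 8 for genotype by cold in crowns and leaves. DESeq2 gave 6 and 8 for genotype in leaves at 0 h and 42 d and 8 for genotype by cold in leaves. For genotype in leaves at 0 h, no filter gave 0, the default form 3 and the replicate block 0, and for genotype by cold in leaves the block gave 6. Over all genes, the fit of all groups moved calls from 5784 to 9253 for cold in ‘NCGR1363’ leaves, from 12261 to 8413 for genotype in crowns at 0 h, from 7148 to 4421 and from 3398 to 5349 for genotype by cold in crowns and leaves, and the replicate block from 3426 to 601 for genotype in leaves at 0 h. Leaving out one library gave 14 to 22 calls for crown against leaf in ‘NCGR1363’ at 42 d, 10 to 20 for cold in ‘Alta’ crowns, 5 to 12 for cold in ‘NCGR1363’ leaves, 5 to 14 for genotype in crowns at 42 d, 0 to 10 and 1 to 9 for genotype in leaves at 0 h and 42 d, and 3 to 9 for genotype by cold in leaves. The cause of these changes was not tested. The replicate block changed no other call of a member between tissues. With 2 or 3 libraries per group, levels under about 3 counts cannot be ordered.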
